A study of Homo sapiens with 63 samples.

Results

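The transcriptome of cells given the probe form of ibufenac was compared with that of cells given its photocaged form, 6 h into the experiment. The comparison uses 6 of the 63 libraries of the study, chosen by their labels: 3 of the group labelled ibufenac probe at 6 h and 3 of the group labelled ibufenac photocaged at 6 h. All 58336 genes of the table entered, and 19352 passed the filter on low counts and were tested. The cells were HEK293T, an established human embryonic kidney line, and carried the Halo tag, a protein that binds chloroalkane ligands covalently. Per the labels, precursors of the acyl glucuronides of ibufenac or ibuprofen that bind Halo were given at 10 µM for 2 h, unbound precursor was washed out, and 3 min of light at 365 nm (5 mW/cm2) released the drug glucuronide. How the 2 forms differed, and which of them was lit, is not stated in the labels, so the groups are called here by their labels. Beside them stand 3 DMSO libraries at 6 h, the ibufenac groups at 12 and 18 h, and the same pair of groups for ibuprofen at 6 h, with 3 libraries each. Whether replicates came from separate cultures is not stated, and p-values cover only the spread between these libraries, which can be technical.

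Ibufenac is an arylacetic acid drug that was withdrawn because of liver injury, and ibuprofen is the same molecule with a methyl group added next to its acid. Both are conjugated to acyl glucuronides, which can react with proteins. Cells meet such damage with separate transcription factors. ATF4, made when the kinases of the integrated stress response phosphorylate eIF2 alpha, drives genes of amino acid supply and the stress factors DDIT3, ATF3 and TRIB3. NRF2, held down by KEAP1 until KEAP1's cysteines are modified, drives glutathione and thioredoxin genes, and HSF1 drives the chaperones of the cytosol. The IRE1, PERK and ATF6 sensors of the endoplasmic reticulum (ER) read unfolded proteins there. HEK293T cells are not liver cells: 6 of 12 hepatocyte markers, HNF4A and SERPINA1 among them, had no counts in the probe libraries and 7 of 12 in the photocaged ones, and the list summed to at most 10.7 CPM (counts scaled to the same total in each library). Of the 12 HEK293T markers, VIM, KRT18, CDH2 and NEFL had the highest means, PAX2, LHX1 and NEFH had means under 1 CPM in both groups, and NEFH was at 0 in all photocaged libraries. That list summed to 561 to 579 CPM in the probe and 585 to 686 CPM in the photocaged libraries. Blood cell markers summed to at most 3.9 CPM and fibroblast markers to at most 6.19 CPM, with PTPRC, CD3E, DCN and FAP at 0 in all 6 libraries.

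The genes on which the comparison turns include recognised targets of ATF4 that were higher with the probe and of NRF2 that were lower. The 250 bases before the RefSeq transcription start of 5 of them are shown 5′ to 3′ (GRCh38.p14), because these windows hold the letters of the element bound by the respective factor. In the first 3, capitals mark TGATGNAA, the core of the element read by ATF4 with a C/EBP partner, on either strand. In the others, capitals mark TGACNNNGC, the core of the antioxidant response element read by NRF2 with a small MAF protein, on either strand.
CHAC1 (chr15:40953221-40953470, plus strand): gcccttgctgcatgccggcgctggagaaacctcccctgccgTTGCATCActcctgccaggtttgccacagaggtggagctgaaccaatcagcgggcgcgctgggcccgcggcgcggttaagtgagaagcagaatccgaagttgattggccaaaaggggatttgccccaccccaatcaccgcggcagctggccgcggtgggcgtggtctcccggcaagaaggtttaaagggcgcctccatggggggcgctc
ATF3 (chr1:212565157-212565406, plus strand): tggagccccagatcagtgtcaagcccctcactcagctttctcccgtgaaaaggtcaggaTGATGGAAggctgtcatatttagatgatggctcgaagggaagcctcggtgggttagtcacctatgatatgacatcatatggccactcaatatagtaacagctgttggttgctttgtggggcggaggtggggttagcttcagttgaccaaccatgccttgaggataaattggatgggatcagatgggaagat
ASNS (chr7:97872409-97872658, minus strand): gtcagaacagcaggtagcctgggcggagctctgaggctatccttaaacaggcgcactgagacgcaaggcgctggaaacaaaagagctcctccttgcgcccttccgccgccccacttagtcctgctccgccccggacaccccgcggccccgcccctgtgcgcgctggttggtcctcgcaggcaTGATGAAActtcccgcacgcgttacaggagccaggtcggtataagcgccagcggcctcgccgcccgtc
TXNRD1 (chr12:104215529-104215778, plus strand): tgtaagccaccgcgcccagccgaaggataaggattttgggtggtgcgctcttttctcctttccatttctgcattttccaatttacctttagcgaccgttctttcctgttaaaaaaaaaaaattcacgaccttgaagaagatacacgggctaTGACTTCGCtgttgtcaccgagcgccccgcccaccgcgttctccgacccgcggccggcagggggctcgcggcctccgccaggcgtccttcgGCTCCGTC
GCLM (chr1:93909431-93909680, minus strand): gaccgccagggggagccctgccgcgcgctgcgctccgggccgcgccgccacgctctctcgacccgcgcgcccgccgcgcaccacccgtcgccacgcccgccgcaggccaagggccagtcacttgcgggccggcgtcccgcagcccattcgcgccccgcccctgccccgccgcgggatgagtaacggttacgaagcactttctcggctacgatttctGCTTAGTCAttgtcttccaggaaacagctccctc
The matches begin 209, 191 and 68 bases before the start of CHAC1, ATF3 and ASNS, 99 bases before that of TXNRD1 and 34 before that of GCLM, and a second TXNRD1 match runs across the start. In windows of 300 bases that also take in the first 50 transcribed, TGATGNAA occurred in 3 of the 13 ATF4 list members called higher that had a window (23.1%), in 3.67% of all 27305 windows and in 1.71% of the 12530 windows of tested genes. TGACNNNGC occurred in 2 of the 7 NRF2 list members called lower that had a window (28.6%), against 13.6% of all windows and 14.9% of those of tested genes. TGATGNAA occurred in 20% of all tested ATF4 list members with a window, and TGACNNNGC in 25% of those of the NRF2 list, 36% of the ATF4 list and 23.8% of the HSF1 list. The TRIB3 and DDIT3 windows hold no TGATGNAA, which says only that these letters are not in this window.

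At an adjusted p under 0.05 (edgeR), 1428 of the 19352 tested genes differed between the forms (7.38%): 489 were higher with the probe (2.53%) and 939 were lower (4.85%). Of these, 566 (2.92% of those tested) differed by over 1.5-fold (247 higher, 319 lower) and 159 by over 2-fold (60 higher, 99 lower). The median log2 difference of all tested genes was -0.03. The 3 probe libraries lay wholly above the 3 photocaged ones in CPM for 1653 genes (8.54%) and wholly below for 2419 (12.5%).

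The count depended on single libraries. It was 365 without photocaged replicate 1, 718 without photocaged replicate 2 and 2535 without photocaged replicate 3. Without probe replicates 1, 2 and 3 it was 1440, 681 and 633, so leaving out probe replicate 1 hardly changed it. A fit to the 6 libraries alone called 12 genes, 4 higher and 8 lower. The totals were 16.2 to 19.1 M counts in the probe and 16.7 to 22.5 M in the photocaged libraries, with 70.7% to 72.1% and 73.8% to 80.8% of them in protein-coding genes. Photocaged replicate 1 differed from the others in composition, with 18.3% of its counts in its 10 largest genes against 23.8% to 28.2% in the other 5 libraries. Probe replicate 3 stood out in another way: it had counts for 18449 genes, the fewest of all 63 libraries. Probe replicates 1 and 2 had 22227 and 20857. The log2 levels of probe replicate 3 correlated with theirs at 0.963 and 0.959, and theirs with each other at 0.978. The libraries also differed in how their levels followed GC content. Over 14430 genes, each library's deviation from the mean of all libraries had a Spearman correlation with GC of -0.41, -0.29 and 0.41 in photocaged replicates 1 to 3 and of 0.18, 0.32 and 0.34 in the probe replicates. Removing GC and transcript length trends from every library left the number of calls similar (1437) but changed the split from 34.2% higher to 60% higher (862 higher, 575 lower). Of the calls as reported, 346 higher and 445 lower were also called with the trends removed. Leaving out photocaged replicate 1 as well gave 622 calls.

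A set of 195 genes was called in the same direction as reported, without each of the 6 libraries in turn, with the trends removed, and with the trends removed and photocaged replicate 1 left out. It holds 47 genes higher with the probe and 148 lower, of which 24 and 91 differed by over 1.5-fold. These are called the genes that passed the 8 refits below. The set was chosen after the values were seen. The fit to the 6 libraries alone is not one of the 8, and 185 of the 195 genes lost their call there, HSPA8, ATF3, DDIT3, CHAC1, ASNS, XBP1, MEIS1 and FZD4 among them. Among those it kept were TRIB3, PMAIP1, STC2 and RHOB on the higher side and TXNRD1, GCLM, HMOX1, DNAJA1 and AHNAK on the lower. Its higher side includes TRIB3, CHAC1, ATF3, DDIT3, ASNS, JUN and XBP1, and its lower side HMOX1, TXNRD1, GCLM, SRXN1, HSPA8, DNAJA1, AHNAK and MEIS1, as the plot of all tested genes shows.

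**Figure D1:**
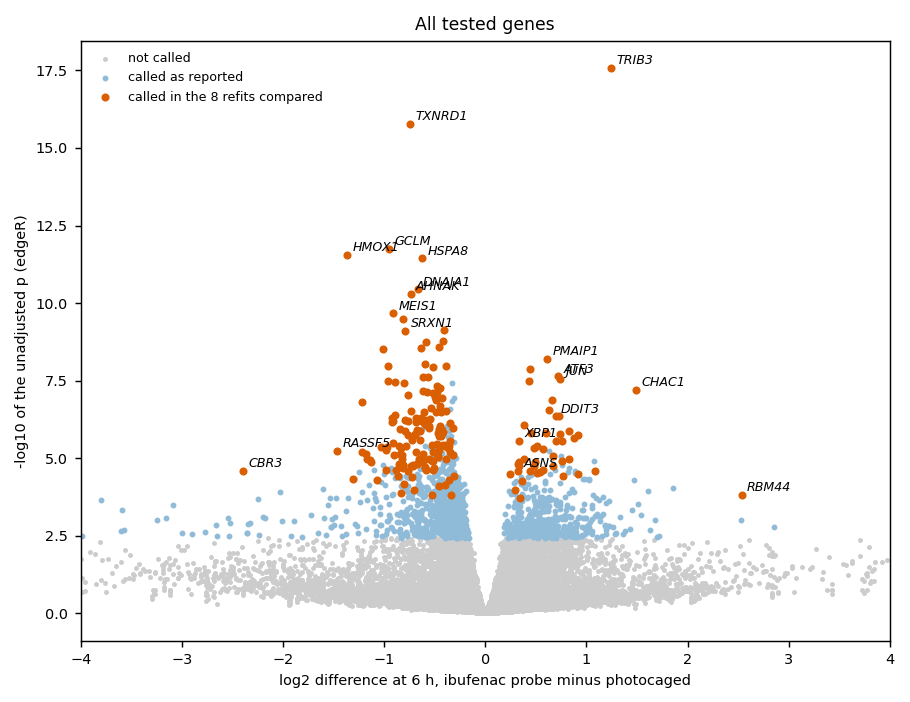
Each point is a tested gene, with the log2 difference at 6 h (ibufenac probe minus photocaged, n = 3 libraries per group) on the x axis and -log10 of the unadjusted edgeR p on the y axis. Grey genes were not called, blue genes were called as reported, and orange marks the 195 genes that passed the 8 refits; TRIB3 stands highest on the right, and TXNRD1, GCLM and HMOX1 on the left. The x axis ends at 4 and leaves out 141 genes, 18 of them called.

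Targets of ATF4 and of the integrated stress response were, as reported, the list with the most members higher with the probe; with the trends removed the larger list of ribosomal proteins had 1 more. Of 31 members, all tested, 14 were called higher and none lower, and the list's median log2 difference was 0.33 against -0.03 for all tested genes. With the trends removed 15 were higher, without photocaged replicate 1 there were 9, and 8 passed the 8 refits: TRIB3, DDIT3, CHAC1, ATF3, CEBPG, DDIT4, ASNS and STC2. For this list and those below, 2.53% of all tested genes were called higher as reported and 4.85% lower. The totals over all genes were 862 higher and 575 lower with the trends removed. Without photocaged replicate 1 they were 73 and 292, so list counts of different fits have different backgrounds.

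TRIB3 encodes a pseudokinase that binds ATF4 and dampens its own inducers. It stood at 115, 126 and 129.9 CPM in the probe libraries, at 47.6, 54.4 and 54.6 CPM in the photocaged ones and at 29.8, 34.7 and 40.8 CPM in DMSO. Every probe library was above every photocaged library, and every photocaged library was above every DMSO library. The difference between the forms was 1.25 ± 0.09 on the log2 scale (SE, adjusted p = 5.1e-14) and 0.95 with the trends removed. Against DMSO, TRIB3 was higher by 1.82 with the probe and by 0.57 with the photocaged form, and both passed the test. These comparisons share the DMSO libraries, and they called 12.7% and 3.03% of the tested genes.

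CHAC1 encodes an enzyme that degrades glutathione. Its levels were 22.8, 28.0 and 24.1 CPM with the probe against 5.71, 9.29 and 11.8 CPM with the photocaged form, a log2 difference of 1.49 ± 0.24 (adjusted p = 3.53e-05). The DMSO libraries had 4.52 to 5.85 CPM, and the photocaged form did not pass the test against them (0.75 ± 0.24, adjusted p = 0.0815), but passed with the trends removed (0.87, adjusted p = 0.0125). CHAC1 had the largest difference of the ATF4 list.

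DDIT3, the transcription factor CHOP, was at 59.0, 58.4 and 45.6 CPM with the probe and at 32.6, 30.8 and 37.2 CPM with the photocaged form (0.69 ± 0.12, adjusted p = 0.00015). ATF3, a stress-induced repressor, was at 339, 320.2 and 231 CPM against 185, 183 and 174 CPM (0.72 ± 0.11, adjusted p = 1.88e-05). For both genes the groups did not overlap, and probe replicate 3 was the lowest of its group. Neither gene passed the test between the photocaged form and DMSO (0.36 with adjusted p = 0.0905, and 0.16 with adjusted p = 0.54).

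ASNS, which makes asparagine, had a different pattern. It was at 322, 289 and 301 CPM with the probe, at 254, 246 and 227 CPM with the photocaged form and at 123 to 132 CPM in DMSO. The photocaged form was thus already higher than DMSO (0.91 ± 0.07, adjusted p = 1.34e-13), and the difference between the forms was small (0.32 ± 0.07, adjusted p = 0.00216). CEBPG, a partner of ATF4 on DNA, was at 217, 196 and 196 CPM against 148, 159 and 143 CPM (0.44 ± 0.07, adjusted p = 2.26e-05).

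SLC7A11, the cystine carrier and a target of both ATF4 and NRF2, was not called between the forms: 229.8, 208 and 194 CPM with the probe and 209, 221 and 173 CPM with the photocaged form, against 79.9 to 95.1 CPM in DMSO. Its difference was 0.07 ± 0.10 (adjusted p = 0.73), while each form was higher than DMSO by the test (1.25 and 1.18). The ATF4 transcript itself was not called (0.11 ± 0.06, adjusted p = 0.204). The ATF4 protein is known to be controlled mainly in translation. GDF15, a secreted stress hormone, was at 8.78, 8.39 and 12.2 CPM against 3.84, 5.84 and 4.56 CPM (1.05 ± 0.27, adjusted p = 0.0115), and its call was lost without photocaged replicate 1 or probe replicate 3. NUPR1 lay wholly above with the probe, as did 8.54% of all tested genes, but was not called (0.45 ± 0.26, adjusted p = 0.309).

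**Figure D2:**
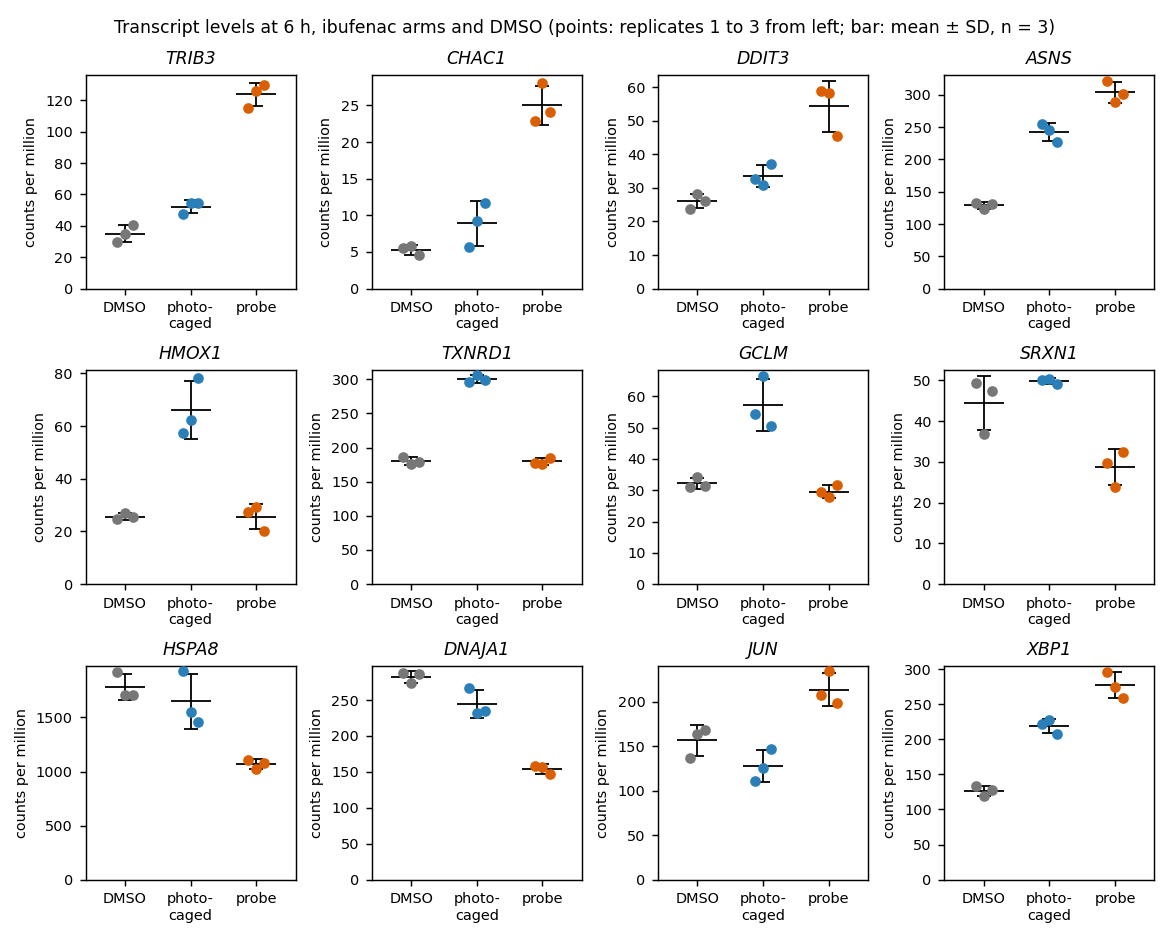
Each panel gives one gene's level in CPM (y axis, from 0) in the 3 DMSO, 3 ibufenac photocaged and 3 ibufenac probe libraries at 6 h, one point per library, with the mean and SD as bars. TRIB3 steps up from DMSO to photocaged to probe, HMOX1, TXNRD1 and GCLM are high with the photocaged form and at the DMSO level with the probe, and HSPA8 and DNAJA1 are low with the probe.

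Among targets of NRF2, those that changed were lower with the probe. Of 28 tested members of 33, 9 were called lower, none higher and 19 did not pass, with a median of -0.16. All tested genes had 4.85% called lower and a median of -0.03. With the trends removed 8 were lower, without photocaged replicate 1 there were 7, and HMOX1, TXNRD1, GCLM, GCLC, SRXN1, PRDX1 and UGDH passed the 8 refits. AKR1C1, AKR1C2, AKR1C3, ABCC3 and GPX2 were too low to test.

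HMOX1, which degrades heme, was at 27.4, 29.2 and 20.2 CPM with the probe and at 57.3, 62.4 and 78.4 CPM with the photocaged form (-1.37 ± 0.15, adjusted p = 1.36e-08). In DMSO it was at 24.6 to 26.9 CPM, inside the range of the probe libraries. TXNRD1, the cytosolic thioredoxin reductase, was at 178, 176 and 185 CPM with the probe, at 296, 307 and 299 CPM with the photocaged form and at 176 to 187 CPM in DMSO (-0.74 ± 0.06, adjusted p = 1.62e-12). GCLM, the modifier subunit of the enzyme that starts glutathione synthesis, was at 29.4, 27.7 and 31.6 CPM with the probe, at 54.4, 66.4 and 50.6 CPM with the photocaged form and at 31.0 to 34.1 CPM in DMSO (-0.95 ± 0.10, adjusted p = 1.13e-08).

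For these 3 genes the photocaged libraries stood apart and the probe libraries did not. Against DMSO, the photocaged form was higher by 1.36 (HMOX1), 0.74 (TXNRD1) and 0.83 (GCLM), each passing the test. The probe differed from DMSO by -0.01 (95% interval -0.31 to 0.30), -0.01 (-0.13 to 0.12) and -0.12 (-0.33 to 0.08), and none passed. SRXN1, which repairs oxidised peroxiredoxins, did not share this pattern: it was at 29.8, 23.8 and 32.5 CPM with the probe, 50.0, 50.3 and 49.0 CPM with the photocaged form and 37.0 to 49.3 CPM in DMSO. The probe was below both (-0.79 ± 0.11 against photocaged, adjusted p = 1.37e-06, and -0.63 ± 0.11 against DMSO, adjusted p = 1.77e-05). PRDX1, a peroxiredoxin, was below DMSO with both forms (-0.60 and -0.29, both passing), and lower with the probe than with the photocaged form (-0.31 ± 0.07, adjusted p = 0.00285).

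None of the 11 genes of the list of NRF2, KEAP1 and their regulators was called, and their median was 0.00. CBR3, a carbonyl reductase outside the NRF2 list, was among the largest lower differences by the naming rule (-2.39 ± 0.52, adjusted p = 0.00216). It had 0.87, 0.40 and 0 CPM with the probe and 2.92, 1.91 and 1.87 CPM with the photocaged form, so it rests on few counts.

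Among heat shock genes of the HSF1 list, 9 of 22 were called lower with the probe, none higher and 13 did not pass, with a median of -0.27. All tested genes had 4.85% called lower and a median of -0.03. The count was again 9 with the trends removed and 5 without photocaged replicate 1, and HSPA8, HSPE1, DNAJA1 and DNAJB1 passed the 8 refits. HSPA8, the main cytosolic HSP70, was at 1105, 1023 and 1083 CPM with the probe and at 1934, 1553 and 1458 CPM with the photocaged form (-0.62 ± 0.07, adjusted p = 1.41e-08). DNAJA1, its co-chaperone, was at 158, 157 and 147 CPM against 267, 232 and 235 CPM (-0.67 ± 0.08, adjusted p = 1.17e-07).

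Unlike HMOX1, HSPA8 and DNAJA1 were not higher than DMSO with the photocaged form, and they were below it with the probe. DNAJA1 was at 273 to 288 CPM in DMSO, and its difference from DMSO was -0.88 ± 0.08 with the probe (adjusted p = 8.25e-12) and -0.21 ± 0.08 with the photocaged form (adjusted p = 0.166). All 3 photocaged libraries lay below all 3 DMSO libraries for DNAJA1, and with the trends removed it was called lower with the photocaged form too (-0.27, adjusted p = 0.0206). For HSPA8 the same differences were -0.73 ± 0.07 (adjusted p = 2.09e-11) and -0.11 ± 0.07 (adjusted p = 0.495). HSPE1, the mitochondrial co-chaperonin, was at 80.3, 67.2 and 74.5 CPM with the probe and 133, 113 and 93.1 CPM with the photocaged form (-0.61 ± 0.10, adjusted p = 3.76e-05). DNAJB1 was at 62.0, 60.2 and 71.9 CPM against 90.8, 89.3 and 93.6 CPM (-0.50 ± 0.08, adjusted p = 5.12e-05). The inducible HSP70 gene HSPA1B was not called (-0.59 ± 0.26, adjusted p = 0.147), and photocaged replicate 3 stood at 458 CPM against 250.2 and 255 CPM in the other two. STIP1, which links HSP70 to HSP90, lay wholly below with the probe, as did 12.5% of all tested genes, without passing the test (-0.19 ± 0.07, adjusted p = 0.0708). With the trends removed, both HSPA1B and STIP1 were called lower.

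The unfolded protein response of the ER did not move one way. Of 23 members, 3 were called higher and 8 lower, against 2.53% and 4.85% of all tested genes, and with the trends removed 3 and 3. Without photocaged replicate 1 it was 2 and 2, and XBP1 and HYOU1 passed the 8 refits, in opposite directions. XBP1, the transcription factor spliced by IRE1, was at 296, 275 and 259 CPM with the probe, 222, 228 and 208 CPM with the photocaged form and 119 to 133 CPM in DMSO (0.34 ± 0.06 between the forms, adjusted p = 0.000487). HYOU1, an ER chaperone, was at 212, 205 and 219.9 CPM against 278, 264 and 268 CPM (-0.35 ± 0.07, adjusted p = 0.000501). HSPA5, the ER's HSP70 and the usual marker of this response, was not called (0.03 ± 0.14, adjusted p = 0.922), with 207 to 242 CPM with the probe and 209 to 229.5 CPM with the photocaged form. PDIA6, a disulfide isomerase, was at 242, 254 and 232 CPM against 324, 295 and 292 CPM (-0.32 ± 0.06, adjusted p = 0.000256), a call lost when the trends were removed and photocaged replicate 1 left out (-0.19).

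Of 20 cytosolic tRNA synthetases 3 were called higher and none lower, with a median of 0.11, against 2.53% of all tested genes called higher. Without photocaged replicate 1 only 1 was called, and with the trends removed 7. AARS1, which charges tRNA with alanine, was at 341, 329 and 314 CPM against 272, 276 and 286 CPM (0.24 ± 0.06, adjusted p = 0.00588), and its call was lost without photocaged replicate 1. Of 19 amino acid transporters 1 was higher and 2 were lower, against 2.53% and 4.85% of all tested genes. The lower ones, the glutamate carrier SLC1A3 (-0.74 ± 0.13, adjusted p = 0.000115) and the cationic amino acid exchanger SLC7A6 (-0.36 ± 0.07, adjusted p = 0.000643), passed the 8 refits. SLC1A3 was at 24.6, 21.5 and 22.7 CPM with the probe, at 41.0, 40.8 and 33.0 CPM with the photocaged form and at 38.9 to 45.5 CPM in DMSO. SLC38A2, the starvation-induced carrier of neutral amino acids, was higher (0.28 ± 0.06, adjusted p = 0.00401), but not called without photocaged replicate 1 (0.22).

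Of 23 p53 targets 8 were called higher and none lower, with a median of 0.22, against 2.53% of all tested genes called higher. GDF15 is counted in both this list and the ATF4 list, so the 2 counts are not separate. The activity of p53 itself was not tested. With the trends removed 9 were higher, and without photocaged replicate 1 only 2. TNFRSF10B, the death receptor DR5 and also a target of DDIT3, passed the 8 refits at 166, 158 and 149.7 CPM against 131, 137 and 132 CPM (0.24 ± 0.05, adjusted p = 0.00262). BBC3, the cell death protein PUMA, was at 18.9, 28.8 and 31.0 CPM against 5.67, 6.83 and 16.1 CPM (1.47 ± 0.33, adjusted p = 0.00345), and its call was lost without photocaged replicate 1 (1.19). MDM2, which degrades p53, had overlapping libraries (0.28 ± 0.08, adjusted p = 0.0213), and its call was lost without photocaged replicate 1 or 3 or probe replicate 1 or 2. PMAIP1, the cell death protein NOXA, which is in neither list and was picked out after its values were seen, passed the 8 refits: 142, 162 and 137 CPM against 95.5, 100.2 and 92.4 CPM (0.61 ± 0.09, adjusted p = 7.12e-06).

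Immediate early genes moved both ways, with 3 called higher and 4 lower of 30 tested, against 2.53% and 4.85% of all tested genes. JUN, a subunit of AP-1, was at 208, 235 and 199 CPM with the probe, at 111, 126 and 147 CPM with the photocaged form and at 137 to 169 CPM in DMSO (0.74 ± 0.11, adjusted p = 2.1e-05). KLF10, a transcription factor induced by TGF-beta, was at 30.7, 37.2 and 22.6 CPM against 47.2, 44.1 and 42.0 CPM (-0.56 ± 0.11, adjusted p = 0.00127). JUN and KLF10 passed the 8 refits. JUND, a GC-rich gene called higher as reported (0.75 ± 0.15, adjusted p = 0.00107), had a difference of -0.003 once the trends were removed (adjusted p = 0.998).

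**Figure D3:**
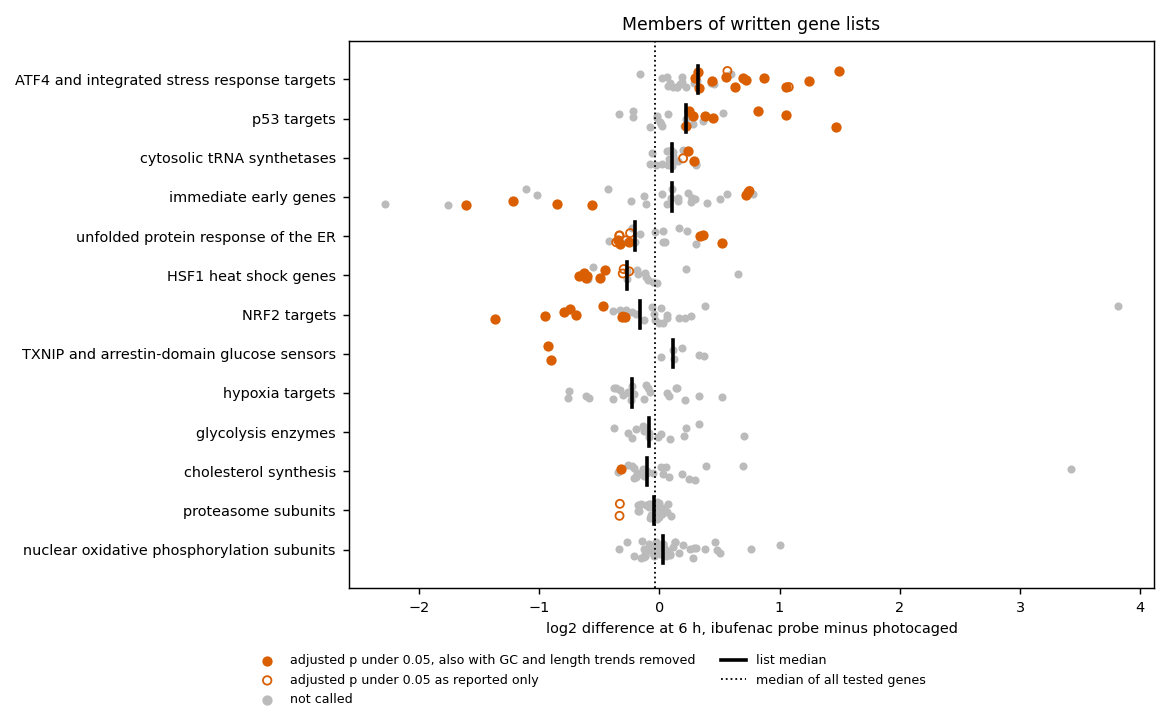
Each row is a written gene list, each point a tested member at its log2 difference at 6 h (ibufenac probe minus photocaged, x axis); filled orange was called as reported and with GC and length trends removed, open orange as reported only, and grey not called. Bars mark list medians and the dotted line the median of all tested genes (-0.03). The medians and called members of the ATF4 and p53 lists lie to its right, and the called members of the HSF1 and NRF2 lists to its left.

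Several lists gave calls that rested on 1 library or on the GC trend. Of 75 cytosolic ribosomal proteins 8 were called higher and 1 lower, but 0 without photocaged replicate 1. With the trends removed the counts were 16 and 1. RPS21 was at 284, 274 and 295 CPM against 129, 173 and 225 CPM (0.70 ± 0.17, adjusted p = 0.00894), with photocaged replicate 1 the lowest. Of 25 G2/M genes 4 were lower, 1 with the trends removed and 0 without photocaged replicate 1, and of 31 proteasome subunits 2 were lower, 0 in each of those fits. Of 15 transcripts of the mitochondrial genome 1 was called lower as reported, against 4.85% of all tested genes. It was 1 also with the trends removed and in each fit that left out 1 library. With the trends removed and photocaged replicate 1 left out, 0 were called. The list's median was -0.60 at 6 h, but for the same forms it was 1.00 at 12 h, with none called, and 0.10 at 18 h. That list's level was low in the 6 h probe libraries as a whole: mitochondrial transcripts took 0.21% to 0.24% of their counts, against 0.27% to 0.35% in the photocaged ones.

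TXNIP and ARRDC4, arrestin-domain genes that respond to glucose, were lower with the probe, and the other 6 members of their list were not called. ARRDC4 was at 9.36, 8.99 and 11.1 CPM against 18.6, 17 and 19.5 CPM (-0.90 ± 0.18, adjusted p = 0.00102), and passed the 8 refits. TXNIP was at 5.49, 6.66 and 9.27 CPM against 16.4, 13.2 and 10.9 CPM (-0.92 ± 0.20, adjusted p = 0.00228), but was not called without photocaged replicate 1 (-0.76). ELOVL6, which elongates fatty acids, was lower at 7.68, 6.46 and 7.78 CPM against 13.7, 12.7 and 12.1 CPM (-0.81 ± 0.17, adjusted p = 0.00196).

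Neither hypoxia targets (0 of 26 called, median -0.23) nor glycolysis enzymes (0 of 17, median -0.09) were called. LDHA (-0.38 ± 0.14, adjusted p = 0.0794) and PGK1 (-0.26 ± 0.11, adjusted p = 0.159) lay wholly below with the probe, as did 12.5% of all tested genes. BNIP3 and HK2 were not called either (-0.21 and 0.33). Of 25 cholesterol synthesis genes 1 was lower, of 51 nuclear subunits of oxidative phosphorylation 0 were called, of 8 tested AhR targets 0, and of 13 tested NF-kB targets 0. At an unadjusted p under 0.05 the whole comparison had 4375 genes.

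The cyclooxygenases that ibufenac and ibuprofen inhibit, PTGS1 and PTGS2, were near the limit of detection, at 0.37 to 0.75 CPM and 1.85 to 2.34 CPM in the 6 libraries, and neither was called (adjusted p = 0.886 and 0.918). Of 13 tested genes on the list for glucuronidation, glucuronide hydrolysis and drug efflux, 3 were lower and none higher, against 4.85% of all tested genes called lower. The only member that passed the 8 refits was UGT8 (-0.73 ± 0.16, adjusted p = 0.00296), which belongs to the UGT family but is a ceramide galactosyltransferase. The efflux pumps ABCB1 (-0.63 ± 0.18, adjusted p = 0.0225) and ABCG2 (-0.97 ± 0.28, adjusted p = 0.0247) were not called with the trends removed. UGT1A1, UGT1A3, UGT1A6, UGT1A9 and UGT2B7 were too low to test. Neither GNG2 (0.71 ± 0.40, adjusted p = 0.286) nor RARB (0.32 ± 0.27, adjusted p = 0.519) was called. CXCR4, a chemokine receptor, was lower as reported (-0.97 ± 0.30, adjusted p = 0.0361) but lost its call with the trends removed and without any library other than photocaged replicate 3.

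Other genes that passed the 8 refits belong to no list of this set. AHNAK, a very large scaffold protein, was at 71.7, 70.3 and 71.1 CPM with the probe, at 113, 112 and 129.8 CPM with the photocaged form and at 139 to 149 CPM in DMSO (-0.74 ± 0.09, adjusted p = 1.37e-07). MEIS1, a homeobox factor, was at 14, 9.99 and 11.1 CPM against 23.7, 20.7 and 21.7 CPM (-0.91 ± 0.12, adjusted p = 5.14e-07), and FZD4, a WNT receptor, at 5.83, 5.13 and 6.16 CPM against 13.7, 10.4 and 10.5 CPM (-1.02 ± 0.14, adjusted p = 3.57e-06). For MEIS1 and FZD4 the photocaged form did not pass the test against DMSO (0.00 and -0.15), and the probe was lower than DMSO (-0.91 and -1.17).

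By size, the 12 largest higher and 12 largest lower differences under the naming rule included 20 genes with a mean under 5 CPM. RBM44, the largest higher, was at 1.62, 2.80 and 2.25 CPM against 0.57, 0.37 and 0.18 CPM (2.53 ± 0.62, adjusted p = 0.00718), and RASSF5 at 1.56, 1.33 and 1.04 CPM against 4.32, 3.26 and 3.27 CPM (-1.47 ± 0.29, adjusted p = 0.00081). Of the 24, RBM44, CHAC1, CBR3 and RASSF5 passed the 8 refits. For each of the 12 largest lower differences except that of PDK4, the lowest library was probe replicate 3, which had counts for the fewest genes.

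The same pair of forms was compared at 12 and 18 h, in libraries that share none with the 6 h groups. At 12 h, 373 genes were called (1.93%), 175 higher (0.904%) and 198 lower (1.02%), and at 18 h 1 gene (0.00517%). Of the 489 genes higher at 6 h, 11 were called higher at 12 h, which is 2.25% of the former and 6.3% of the latter, and of the 939 lower, 27 were called lower (2.88% and 13.6%). Calls in the opposite direction at 12 h numbered 4 and 6. The sign at 12 h was the same for 28.6% of the higher and 57.5% of the lower genes, against 48.3% and 51.6% of all tested genes with that sign. For the 862 higher and 575 lower genes called at 6 h with the trends removed, it was the same for 50.6% and 57.9%. All tested genes then had 51.4% and 48.4%, so the low share among the higher genes was not seen in that fit. The 12 h count ran from 45 without photocaged replicate 1 of that time to 871 without probe replicate 3.

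The change of the difference from 6 to 18 h was itself called for 231 genes (1.19%), upward for 192 (0.992%) and downward for 39 (0.202%). It ranged from 88 calls without photocaged replicate 1 at 6 h to 334, and 64 genes (53 upward, 11 downward) were called with the trends removed and in each of the 12 fits that left out 1 library. TRIB3's difference of 1.25 at 6 h was 0.22 ± 0.09 at 12 h (adjusted p = 0.191), or 0.52 and called higher with the trends removed (adjusted p = 0.00435), and 0.10 ± 0.09 at 18 h (adjusted p = 0.956), a change of -1.15 ± 0.13 (adjusted p = 2.18e-07). HMOX1's difference of -1.37 was -0.77 ± 0.15 at 12 h (adjusted p = 0.00368) and -0.26 ± 0.15 at 18 h (adjusted p = 0.875), a change of 1.11 ± 0.21 (adjusted p = 0.00187). GCLM changed by 0.87 ± 0.14 (adjusted p = 0.000577), and TXNRD1, still lower at 12 h (-0.30 ± 0.06, adjusted p = 0.00612), by 0.48 ± 0.09 (adjusted p = 0.00113).

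Among the chaperones, HSPA8 was lower with the probe at 12 h as well (-0.30 ± 0.07, adjusted p = 0.0121) but not at 18 h (0.06 ± 0.07, adjusted p = 0.972), and the change was 0.68 ± 0.10 (adjusted p = 5.37e-05). DNAJA1 was lower at 12 h too (-0.47 ± 0.08, adjusted p = 0.00112). The ATF4 targets ASNS and SLC7A11 did not follow TRIB3. ASNS differed more at 12 h (0.56 ± 0.07, adjusted p = 4.16e-06) than its 0.32 at 6 h, a gap between the times that was not tested, and SLC7A11 was called at 12 h only (0.43 ± 0.10, adjusted p = 0.0122). DDIT3 and CHAC1, like TRIB3 as reported, were not called at 12 h (-0.11 and -0.09). From 6 to 18 h their differences changed by -0.82 (adjusted p = 0.00531) and -1.50 (adjusted p = 0.0109). The change of CHAC1 was called in 10 of the 12 fits that left out 1 library.

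**Figure D4:**
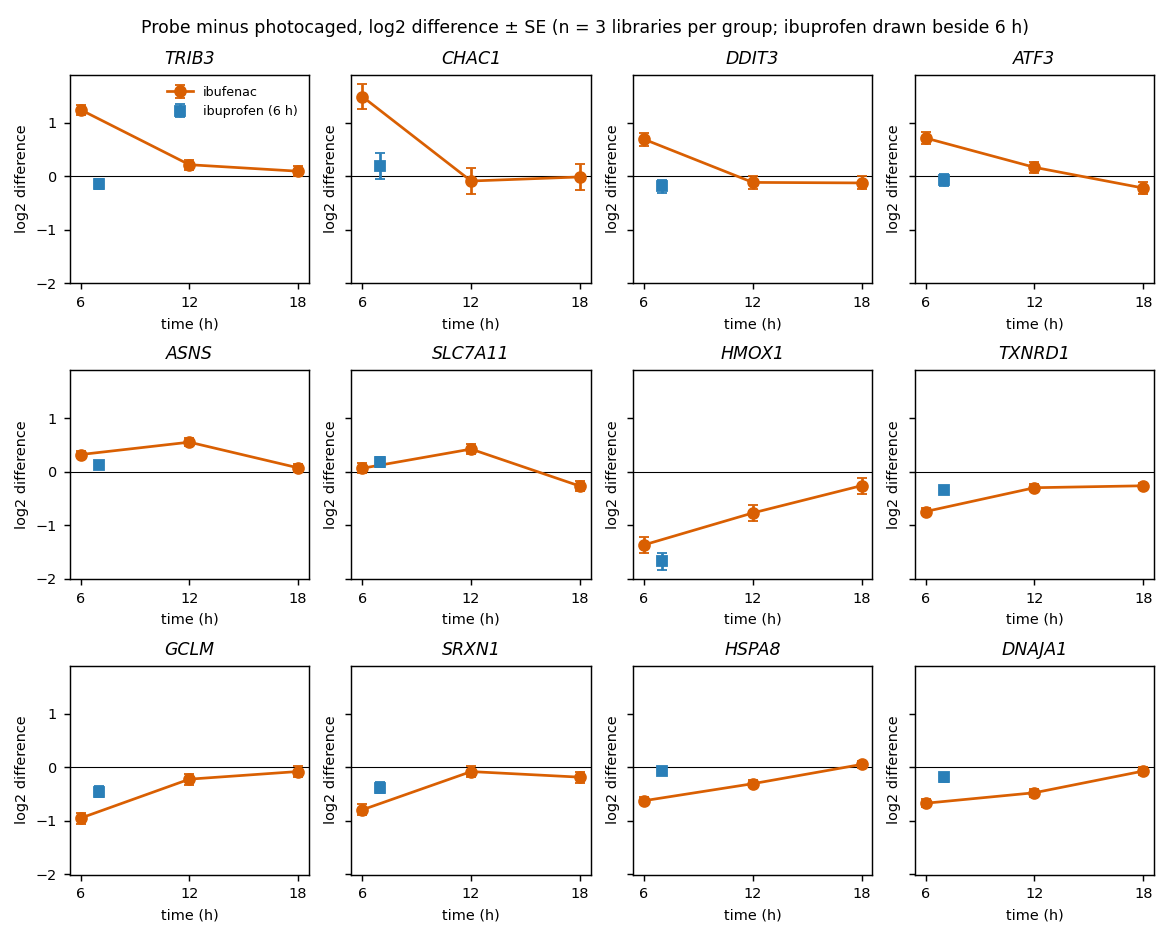
Each panel shows one gene's log2 difference, probe minus photocaged, with its SE (y axis) at 6, 12 and 18 h (x axis) for ibufenac in orange, and for ibuprofen at 6 h in blue, drawn beside 6 h. The ibufenac differences of TRIB3, HMOX1, GCLM and HSPA8 are largest at 6 h; for ibuprofen HMOX1 lies at -1.68, TRIB3 at -0.15 and HSPA8 at -0.07.

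Ibuprofen, which carries the methyl group that ibufenac lacks, was given as the same 2 forms at the same 10 µM and time. Its probe differed from its photocaged form for 23 genes (0.119%), 5 higher (0.0258%) and 18 lower (0.093%), a count between 1 and 375 when 1 library was left out. Which drug had more calls depended on the fit. With the compared libraries alone, 689 genes were called for ibuprofen and 12 for ibufenac, while DESeq2 called 297 and 1864. The 2 counts therefore do not rank the drugs. HMOX1 was lower with the ibuprofen probe too, at 18.4, 18.8 and 19.0 CPM against 53.4, 68.5 and 57.7 CPM (-1.68 ± 0.15, adjusted p = 9.05e-11). The difference of this difference between the drugs was 0.31 ± 0.21 (95% interval -0.11 to 0.73, adjusted p = 0.38). TXNRD1 (-0.35 ± 0.06, adjusted p = 0.00642) and GCLM (-0.45 ± 0.10, adjusted p = 0.0395) were also lower with the ibuprofen probe. The ibufenac differences of these 2 genes were larger by the test (by -0.39, adjusted p = 0.00666, and by -0.50, adjusted p = 0.0222), but not with the trends removed (-0.19, adjusted p = 0.228, and -0.25, adjusted p = 0.3).

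TRIB3 separated the drugs. With ibuprofen it was at 41.0, 45.8 and 48.6 CPM in the probe and 50.2, 49.1 and 50.7 CPM in the photocaged libraries (-0.15 ± 0.09, adjusted p = 0.454), and the form difference was higher with ibufenac by 1.39 ± 0.13 (adjusted p = 3.25e-10), or 0.77 with the trends removed (adjusted p = 0.00312). DDIT3 (0.88 ± 0.17, adjusted p = 0.00349), ATF3 (0.78 ± 0.15, adjusted p = 0.00373), JUN (0.87 ± 0.16, adjusted p = 0.00282) and XBP1 (0.41 ± 0.09, adjusted p = 0.00714) also had a higher form difference with ibufenac. HSPA8 (-0.56 ± 0.10, adjusted p = 0.00143), FZD4 (-1.24 ± 0.19, adjusted p = 0.000337) and MEIS1 (-0.99 ± 0.16, adjusted p = 0.000474) had a lower one. These 8 genes were called in each of the 12 fits that left out 1 library and with the trends removed.

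Over all genes, the form difference differed between the drugs for 1928 genes (9.96%), higher for 1223 (6.32%) and lower for 705 (3.64%), but for 644 with the trends removed, 139 without ibufenac photocaged replicate 1 and 82 with both. The call of CHAC1 (1.29 ± 0.34, adjusted p = 0.0142) was lost with the trends removed, and those of ASNS (0.19 ± 0.10, adjusted p = 0.234) and SRXN1 (-0.41 ± 0.15, adjusted p = 0.0626) were not made.

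The GC content of the genes followed these differences. Genes called higher with the ibufenac probe had a median GC content of 58.8% over the longest transcript, those called lower 43.6%, and all tested genes 48.3%. Of 10 equal bins of genes by GC content, the richest held 169 genes called higher and 1 lower, and the poorest 11 and 147. Over 19319 genes, the log2 difference had a Spearman correlation with GC of 0.31 for ibufenac at 6 h, -0.28 at 12 h, 0.21 at 18 h and -0.4 for ibuprofen at 6 h. With the trends removed it was 0.01 for ibufenac at 6 h. TRIB3, with 60.9% GC, kept a difference of 0.95 after the removal, and TXNRD1, with 44.8%, one of -0.60. The part of this trend that belongs to the treatment and the part that belongs to the libraries cannot be told apart.

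**Figure D5:**
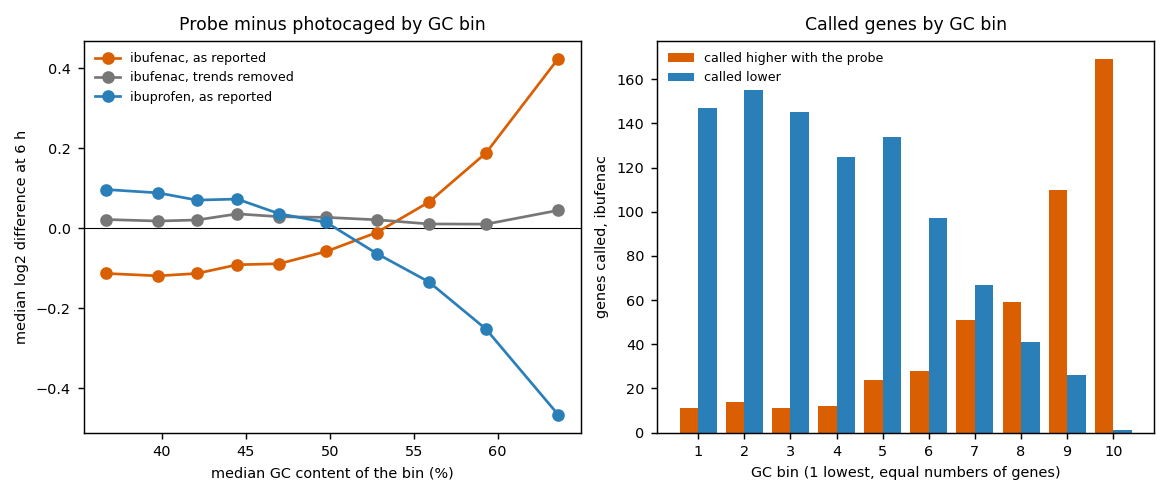
The left panel gives the median log2 difference at 6 h (probe minus photocaged) in 10 equal bins of genes by GC content (x axis, %), for ibufenac as reported, for ibufenac with trends removed and for ibuprofen as reported. It runs from -0.11 to 0.42 for ibufenac, from 0.10 to -0.47 for ibuprofen and stays between 0.01 and 0.04 with trends removed; the right panel counts the genes called for ibufenac in each bin, from lowest to highest GC.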

How the data were processed

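RNA was measured in 63 libraries of HEK293T cells, from total RNA depleted of ribosomal RNA, with stranded kits, per the labels. The authors deposited estimated counts per gene without normalization. They hold fractions in 22.6% of values at or above 1, so all were rounded. Their FPKM table was not used. Which aligner, counter and build were used is not given in the sources used here. Current symbols matched 57754 of 58336 gene identifiers, 462 others were named from GENCODE release 29, and 120 stayed without a name.

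Totals were 12.1 to 38.4 M counts over all libraries. A quasi-likelihood model was fitted with edgeR 4.0.16 (R 4.3.3) over all 21 groups (TMM factors, filterByExpr with a minimum count of 10, 42 residual degrees of freedom, two-sided tests). P-values were adjusted by Benjamini-Hochberg over the 19352 tested genes of each comparison, at 0.05. Levels are CPM on TMM library sizes, and differences are log2 values with their SE. The alternatives were DESeq2 1.42.0, a replicate block, RLE factors, leaving low-count genes in, the compared libraries alone and leaving out each library. Removing spline trends on GC content and on the length of the longest GENCODE 29 transcript from each library was chosen after seeing the data, as was the same without photocaged replicate 1.

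The comparison, the lists and the named genes were chosen with earlier results of these data known. The naming rule took the 12 largest higher and 12 largest lower called genes whose mean reached 1 CPM and whose groups did not overlap, up to 4 called members of each list with 2 or more calls, a written set of genes, and up to 6 genes of each test between drugs or times. DDIT4, STC2, GCLC, UGDH, PRDX1, PMAIP1 and RHOB fall outside this rule and were picked out after their values were seen. On simulated data for this comparison (19075 genes), 10% of genes changed by 1.25-fold were called, 60% at 1.5-fold, 88% at 2-fold and 98% at 3-fold, with 8 false calls. The changes were planted only in genes with higher counts, and the simulated libraries of the 2 groups carried no GC or composition trends of their own. These rates therefore do not cover genes with few counts or false calls from such trends in the real libraries.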

Additional observations from a re-analysis of the deposited data

Results flagged for a closer look

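The difference between the forms was itself tested between drugs and between times, and it differed for 1928 genes between ibufenac and ibuprofen at 6 h and for 231 genes between 18 and 6 h. Both counts change with single libraries, but 80 genes of the first (46 higher, 34 lower) and 64 of the second were called in each of 12 fits that left out 1 library and with the trends removed.

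Among the genes named in the text or by the naming rule, the form difference at 6 h was higher with ibufenac than with ibuprofen by 1.39 for TRIB3, 0.88 for DDIT3, 0.78 for ATF3, 0.87 for JUN and 0.41 for XBP1 on the log2 scale. It was also higher by 1.21 for RPS21 and 1.12 for RPLP2, both ribosomal proteins, by 2.72 for PDF, a mitochondrial deformylase, by 3.22 for ZNF628, a zinc finger protein, and by 1.18 for UNK, an RNA-binding protein. These were smaller with the trends removed, 0.52 for RPLP2, 1.79 for ZNF628 and 0.73 for UNK, as was TRIB3 at 0.77, and the 6 h difference of ZNF628 with ibufenac was then not called (adjusted p = 0.125, edgeR). It was lower with ibufenac by -0.79 for SLC1A3, -0.56 for HSPA8, -1.24 for FZD4, -0.99 for MEIS1 and -0.65 for ADGRV1, an adhesion receptor (-0.38 with the trends removed).

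Between 18 and 6 h the ibufenac form difference moved downward for genes that were higher with the probe at 6 h: TRIB3 by -1.15, ATF3 by -0.94, DDIT3 by -0.82, XBP1 by -0.50, CEBPG by -0.46 and TNFRSF10B by -0.39. It moved upward for genes that were lower at 6 h. The NRF2 targets HMOX1, GCLM and TXNRD1 moved by 1.11, 0.87 and 0.48, and the chaperones HSPA8, DNAJA1 and DNAJB1 by 0.68, 0.60 and 0.55. FZD4 moved by 1.10, MEIS1 by 0.93, AHNAK by 0.83, NAB1, a repressor of EGR factors, by 0.76, KLF10 by 0.74 and PDIA6 by 0.41. The genes were in part chosen by their 6 h values, so the shared direction is a description.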

How the results depend on the processing

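At 6 h 1428 genes were called, 365 to 2535 leaving out 1 library, 12 with the compared libraries alone (2900 at an unadjusted p under 0.05), 622 with trends removed and without photocaged replicate 1, 1198 higher and 633 lower with no low-count filter, and 789 and 1075 with DESeq2. At 12 h (373) the count was 45 to 871, 139, 667 with trends removed, 1420 with no filter and 920 with DESeq2. At 18 h (1; 1180 at an unadjusted p under 0.05) it was 0 to 1, 2 with trends removed, 191 with no filter and 16 with DESeq2. The change from 6 to 18 h (231) gave 88 to 334, 2 with the compared libraries alone, 379, 376 and 359 in the same order. Ibuprofen (23) gave 1 to 375, 689 with the compared libraries alone, 1098 with no filter and 297 with DESeq2. The difference between drugs (1928) gave 139 to 3075, 1250 with the compared libraries alone, 644 with trends removed and 82 with photocaged replicate 1 also left out. Against DMSO the probe (2466) gave 1493 to 2228 and the photocaged form (587) 247 to 835, or 66 with the compared libraries alone. The cause of these shifts was not tested.

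Replicate numbers are not stated to pair samples, and same-numbered libraries did not deviate together (correlations of 0.04, -0.01 and 0.04). With the replicate block the counts were 1360 at 6 h, 357, 1 and 250 for the later times and the change, 20 for ibuprofen, 1878 between drugs and 2458 and 583 against DMSO.

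Of 1521 values of single genes under the alternatives, 1167 stayed on their side of the threshold, 336 lost a call, 12 gained one and 6 changed sign, and only JUND among the latter was called as reported. These were JUND (-0.00318 with trends removed), HSPA5 (-0.00111 without photocaged replicate 1, and from -0.027 to 0.0848 leaving out each library), SLC7A11 (from -0.0292, without photocaged replicate 3, to 0.142) and PTGS2 (0.0642 with trends removed, 0.0331 without photocaged replicate 1 as well).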

Other observations

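Over all tested genes 2.53% were called higher and 4.85% lower, and the lists not yet described had 0 to 3 calls each as reported. Hosts of small nucleolar RNAs, whose spliced transcripts are degraded by nonsense-mediated decay, had 2 of 16 members called higher, SNHG1 (0.24 ± 0.07, adjusted p = 0.0322, edgeR) and SNHG32 (0.30 ± 0.09, adjusted p = 0.0309). With the trends removed 8 of the 16 were called higher, these 2 among them, against 862 of the 19352 tested genes. It was 3 with photocaged replicate 1 also left out. In the fits without trend removal, neither gene was called without photocaged replicate 1, and each in only 1 of the 6 fits that left out 1 library. Of 23 replication-dependent histones 2 were lower. H2BC17 was at 41.6, 39.0 and 59.2 CPM with the probe and 72.8, 63.2 and 83.8 CPM with the photocaged form (-0.65 ± 0.15, adjusted p = 0.00411). Of 17 interferon-stimulated genes 2 were lower, and IFIT5, an RNA-binding protein induced by interferon, passed the 8 refits at 8.72, 7.93 and 8.64 CPM against 17.1, 15.6 and 12.7 CPM (-0.84 ± 0.17, adjusted p = 0.000999). Of 17 autophagy genes 1 was higher, the initiating kinase ULK1 (1.05 ± 0.30, adjusted p = 0.0225), and 2 were lower, MAP1LC3B (-0.49 ± 0.14, adjusted p = 0.0257) and GABARAPL2 (-0.28 ± 0.08, adjusted p = 0.0241), and without photocaged replicate 1 none of the list was called.

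Of 25 genes of G1/S and DNA replication 2 were higher and 1 lower, and of 17 mitochondrial tRNA synthetases 2 were higher. Of 12 fatty acid synthesis genes 2 were lower, and of 14 PPAR targets 2. The list of eIF2 alpha kinases, phosphatase subunits and ATF4 had 1 of 15 members higher, as did YAP targets (1 of 14) and retinoic acid genes (1 of 15). Prostaglandin genes (1 of 13) and metallothioneins and zinc transporters (1 of 7) had 1 lower, and of 16 core clock genes 0 were called.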
